A study of Gossypium barbadense and Gossypium hirsutum with 8 samples.

Results

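Transcript levels of developing cotton fibers at 15 days post anthesis (DPA) were set against those at 10 DPA in Gossypium barbadense, the extra-long-staple cotton, and Gossypium hirsutum, upland cotton. The groups were G. barbadense fiber at 15 DPA, G. hirsutum fiber at 15 DPA, G. barbadense fiber at 10 DPA and G. hirsutum fiber at 10 DPA, each with 1 RNA sequencing library. These 4 libraries were chosen by their stage labels from the 8 of the series, which also hold 1 library per species at 20 and at 5 DPA. The sources used here give no cultivar, no treatment and no number of plants or bolls behind a library, so the p-values below measure only the spread between these libraries. The 2 species served as the 2 libraries of a stage, paired by species. By the class rule given below, 3394 of the 59006 genes in the table moved the same way in both species, in 1 species only or in opposite ways, and all 3394 passed the filter on low values, a mean of 1 RPKM over the 8 libraries.

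A cotton fiber is a single cell that grows out of the seed coat and elongates to an extreme length while its wall stays thin. Toward the end of elongation the cell starts to lay down a secondary wall of nearly pure cellulose, and many transcripts of the elongation phase give way to those of wall thickening. The step studied here lies within elongation and at the approach to this change. Both species are tetraploid, with an A and a D subgenome, so that most genes have a close copy on the other subgenome. An identifier such as Gh_D07G1300 places a gene on chromosome D07, and Sca identifiers lie on unplaced scaffolds. The identifiers are of G. hirsutum gene models, and the levels of G. barbadense are listed on them too. What this does to low or 0 values in G. barbadense was not tested. The files pair no identifier with a gene name. The reference table of 74561 genes holds G. barbadense locus tags, and 0 identifiers matched it. No function is thus given for any gene, and the fiber label could not be checked against marker genes.

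Values are RPKM, read counts divided by gene length and by library size, as the authors made them. The RPKM summed over the 59006 listed genes was 380030 at 15 DPA against 503585 at 10 DPA in G. barbadense, a ratio of 0.755, and 252850 at 15 DPA against 326872 at 10 DPA in G. hirsutum, a ratio of 0.774. The library sizes behind the scaling were estimated from the ratios of low values. They came out the same at 15 and 10 DPA in G. barbadense within the precision of the estimate, and relative to these 1.03 (15 DPA) and 1.02 (10 DPA) in G. hirsutum. The estimate was sought only among ratios close to equality, so a large difference in library size could not have been found. Results are therefore given as deposited and again with each column scaled to a sum of 300000, called equal sums below. In whole-tissue RNA of this kind, fewer cells of a type and less RNA per cell cannot be told apart. The number of reads behind a single value is not given; among the 43477 genes at 0 in some library, the lowest value above 0 had a median of 0.2 RPKM, which limits from above what 1 read was worth.

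Most genes stood lower at 15 DPA than at 10 DPA in both species. Among the 20356 genes that averaged 1 RPKM or more across the 8 libraries, 78.6% were lower at 15 DPA in G. barbadense and 68.8% in G. hirsutum. The median difference, 15 minus 10 DPA on the log2(RPKM + 1) scale, was -0.68 for G. barbadense and -0.39 for G. hirsutum. With equal sums the medians were -0.33 and -0.16, and 67.1% and 57.3% of the genes were lower at 15 DPA. Median-of-ratios factors, which centre the ratios of genes seen in all libraries, gave medians of -0.04 (G. barbadense) and -0.16 (G. hirsutum), so the general decline in G. barbadense was nearly absent on that scale. Genes are not independent replicates; across them the differences of the 2 species correlated weakly (Pearson's r = 0.18 over the 20356 genes, as deposited and with equal sums).

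The transcript pool became more concentrated over this step in both species. The most abundant genes were ranked anew in each library, so the sets of 15 and 10 DPA need not be the same genes. The 100 most abundant genes held 35.1% of the summed RPKM at 15 DPA against 22.9% at 10 DPA in G. barbadense. In G. hirsutum the 100 most abundant genes held 37.9% at 15 DPA against 28.4% at 10 DPA. The share gained was in few genes and the share lost in many: in G. barbadense 38 genes made up 50% of the 26.8 percentage points gained, against 995 genes for 50% of the points lost. In G. hirsutum the numbers were 48 genes gaining and 503 genes losing, of 28.4 points each way. These shares were not tested; an exact sign-flip test over 2 pairs of libraries could not go below p = 0.5.

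Gh_D05G1514 and Gh_A05G1347 gained the largest share of the pool common to both species. By the class rule given below, both were shared rises with equal sums and with median-of-ratios factors. They were not shared rises as deposited or with quantile normalization. Gh_D05G1514 stood at 11345 RPKM at 15 DPA against 4431 RPKM at 10 DPA in G. barbadense, and at 6900 RPKM at 15 DPA against 3958 RPKM at 10 DPA in G. hirsutum. Gh_A05G1347 had nearly the same level in each library, with 11006 RPKM at 15 DPA against 4293 RPKM at 10 DPA in G. barbadense, and 6748 RPKM at 15 DPA against 3894 RPKM at 10 DPA in G. hirsutum. Whether these identifiers are copies of each other could not be checked. How reads that fit both a gene and its copy were counted is not given in the sources used here. If these are copies, the split between them is uncertain. Gh_D05G1514 took 2.99% of the summed RPKM at 15 DPA against 0.88% at 10 DPA in G. barbadense, and 2.73% at 15 DPA against 1.21% at 10 DPA in G. hirsutum. Its log2 difference over the species was 1.08 (SE 0.35, 2 libraries per stage), which did not pass the threshold (limma, Benjamini-Hochberg adjusted p = 0.618).

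Gh_A10G1331 and Gh_A05G1452 lost the largest share common to both species. By the class rule given below, Gh_A10G1331 was not a shared fall under any scaling used here. Gh_A05G1452 was a shared fall under each of them except median-of-ratios factors. Gh_A10G1331 stood at 715 RPKM at 15 DPA against 2141 RPKM at 10 DPA in G. barbadense, and at 1172 RPKM at 15 DPA against 2182 RPKM at 10 DPA in G. hirsutum. Gh_A05G1452 stood at 396 RPKM at 15 DPA against 1304 RPKM at 10 DPA in G. barbadense, and at 23.7 RPKM at 15 DPA against 383 RPKM at 10 DPA in G. hirsutum. Neither passed the threshold (log2 differences -1.24, SE 0.45, and -2.84, SE 1.17; limma adjusted p = 0.618 for both). At 20 DPA both genes were lower still, with 69.3 and 1.44 RPKM in G. barbadense, and 64.9 and 8.37 RPKM in G. hirsutum.

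Tested over the species with all 8 libraries sharing 1 estimate of the spread, 1 gene of 20356 fell from 10 to 15 DPA (0.00491% of those tested) and 0 rose (0.0%; limma, Benjamini-Hochberg adjusted p under 0.05). Without adjustment (p under 0.05), 1539 genes were lower (7.56%) and 95 higher (0.467%) at 15 DPA as deposited, and 759 lower (3.73%) and 174 higher (0.855%) with equal sums, where 0 passed the adjusted threshold in either direction. The gene that fell was Gh_D07G2461. It stood at 37.9 RPKM at 15 DPA against 905 RPKM at 10 DPA in G. barbadense, and at 4.10 RPKM at 15 DPA against 198 RPKM at 10 DPA in G. hirsutum. Both libraries of 15 DPA lay below both of 10 DPA. The log2 difference was -4.91 (SE 0.63, limma adjusted p = 0.0412) as deposited and -4.54 (SE 0.65, limma adjusted p = 0.269) with equal sums. Its levels at 20 and 5 DPA were 14.8 and 730 RPKM in G. barbadense and 3.57 and 340 RPKM in G. hirsutum. The low count does not show that few genes changed. Over 17 alternative settings Gh_D07G2461 passed in 1, the fit without the G. barbadense library of 15 DPA, which called 20 genes.

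Genes were next sorted by what they did in each species, with no test, since each species has 1 library per stage. A gene counts as a rise or a fall in a species when the 2 libraries differed at least 2-fold on the log2(RPKM + 1) scale and the higher one held 5 RPKM or more. In G. barbadense, 480 genes were rises (4.02% of the 11936 that reached 5 RPKM) and 5022 were falls (42.1%). In G. hirsutum, 611 genes were rises (7.57% of 8069) and 2733 were falls (33.9%). With equal sums the numbers were 687 rises and 2041 falls in G. barbadense (8.07% and 24.0% of 8510) and 1167 rises and 1965 falls in G. hirsutum (14.2% and 24.0% of 8195). With median-of-ratios factors there were 1327 rises and 1033 falls in G. barbadense and 1000 rises and 1794 falls in G. hirsutum. Quantile normalization gave 1174 rises and 1215 falls in G. barbadense and 1485 rises and 1646 falls in G. hirsutum. The excess of falls was thus smaller with equal sums and with quantile normalization, and in G. barbadense it turned into an excess of rises with median-of-ratios factors.

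The falls shared by both species numbered 995, which is 19.8% of the falls in G. barbadense and 36.4% of those in G. hirsutum. The shared rises numbered 71, which is 14.8% of the rises in G. barbadense and 11.6% of those in G. hirsutum. Of all genes reaching 5 RPKM in a species, 42.1% were falls in G. barbadense and 33.9% in G. hirsutum. Rises made up 4.02% and 7.57% of them. These general shares count only genes that reached 5 RPKM in the species named, and many movers of the other species did not reach it there. The shared and general shares thus rest on unlike sets of genes. For falls the shared shares were below the general ones. For rises they were above, 14.8% against 7.57% in G. hirsutum and 11.6% against 4.02% in G. barbadense. Because the sets are unlike, neither agreement nor disagreement of the species is read from these shares. The overlaps were not tested. Opposite ways were taken by 139 genes, of which 62 were rises in G. barbadense and falls in G. hirsutum and 77 the reverse (84 and 55 with equal sums, so the larger of these 2 sets changed with the scaling). With equal sums there were 434 shared falls, 146 shared rises and 139 genes with opposite ways. All 434 were among the 995, and 67 of the 71 shared rises were among the 146. Median-of-ratios factors gave 235 shared falls and 207 shared rises, and quantile normalization 261 and 253, so the excess of shared falls nearly vanished there. Of the shared falls, 137 differed at least 4-fold in both species, and 14 of the shared rises did. Just inside the 2-fold limit, with the smaller of the species differences between 1 and 1.1, lay 15 shared rises and 163 shared falls, and 19 and 204 genes lay just outside, between 0.9 and 1.

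**Figure D1:**
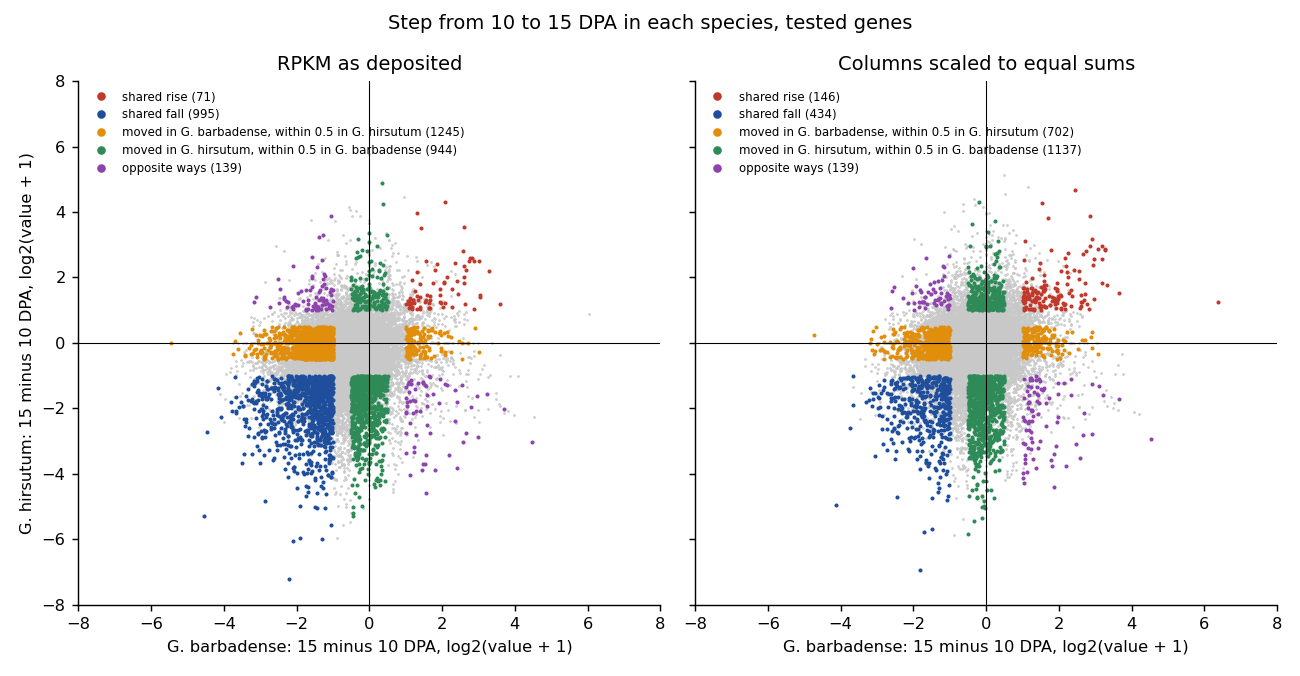
Difference between 15 and 10 DPA on the log2(value + 1) scale in G. barbadense (x axis) and G. hirsutum (y axis) for the 20356 tested genes, as deposited (left) and with equal sums (right); each point is a gene and colours mark the classes. As deposited the points lean to the lower left, with 995 shared falls and 71 shared rises (434 and 146 with equal sums).

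A second group stood 2-fold apart in one species and within 0.5 on the log2 scale in the other, where the gene had a mean of at least 1 RPKM. In G. barbadense 1245 genes did so, 130 rises and 1115 falls, and in G. hirsutum 944 genes, 174 rises and 770 falls. With equal sums there were 187 rises and 515 falls in G. barbadense and 361 rises and 776 falls in G. hirsutum. With equal sums, 70 of the 130 and 337 of the 1115 genes in G. barbadense, and 106 of the 174 and 399 of the 770 genes in G. hirsutum were again in their class. The remaining movers of a species lay between these classes or were below 1 RPKM in the other species. Of the falls in G. barbadense, 1334 (26.6%) averaged less than 1 RPKM in G. hirsutum as deposited, whereas 66 of the falls in G. hirsutum (2.41%) averaged less than 1 RPKM in G. barbadense. With equal sums these were 395 (19.4%) and 78 (3.97%). Fewer genes of any kind reached 1 RPKM in G. hirsutum as deposited, 18158 against 27539 in G. barbadense at 10 DPA and 14607 against 19140 at 15 DPA. As deposited, another 1501 of the falls in G. barbadense and 840 of those in G. hirsutum lay between, and 1335 and 714 of these were lower at 15 DPA in the other species as well.

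A difference between the species in the size of this step was not shown for any gene. The test compared the 15 minus 10 DPA difference in G. barbadense with that in G. hirsutum, against the spread of the species difference over the other stages. It called 0 of 20356 genes in either direction (0.0%; limma, smallest adjusted p = 1). Without adjustment (p under 0.05), the step was more positive in G. barbadense for 195 genes (0.958%) and more positive in G. hirsutum for 107 (0.526%), and with equal sums 208 (1.02%) and 94 (0.462%). The classes that moved in 1 species therefore describe these 4 libraries and do not show that the species differ. Nor does the count of 0 show that they do not differ, since on simulated data this test found 0% of 16-fold changes.

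**Figure D2:**
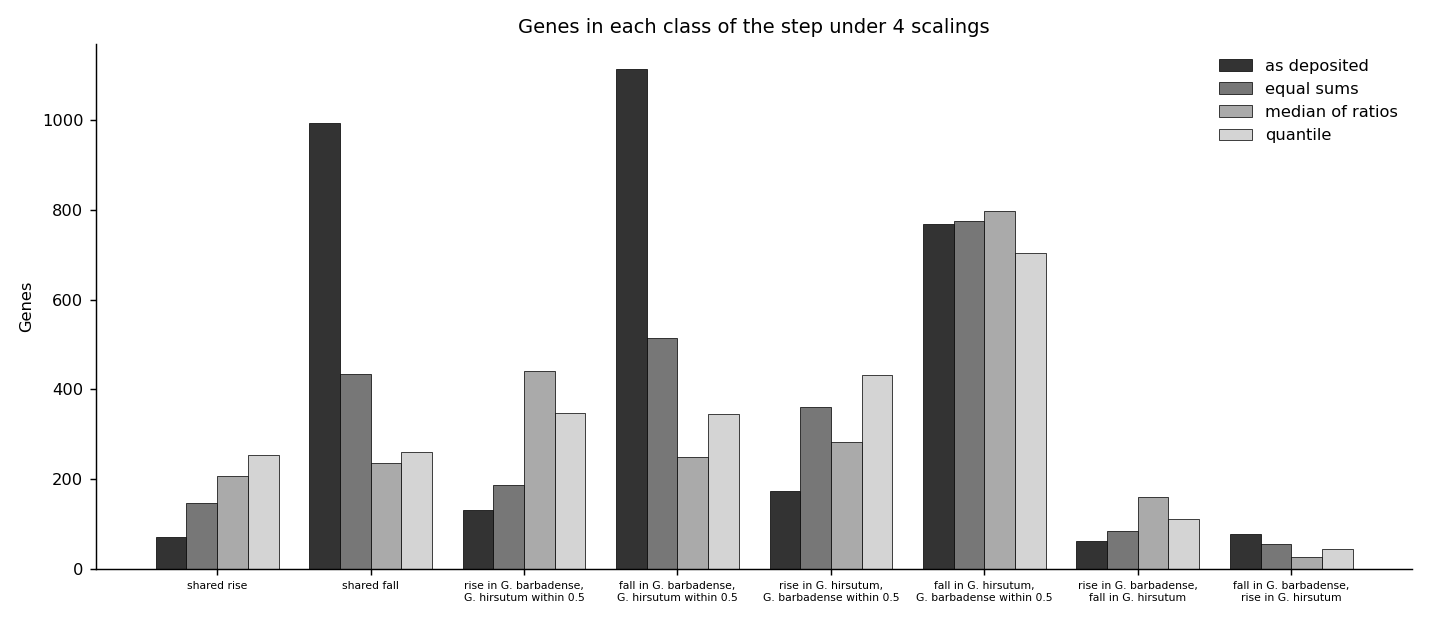
Number of genes (y axis) in each class of the step (x axis) under 4 scalings, shown as bars. Shared falls number 995 as deposited and 434 with equal sums, while falls in G. hirsutum with G. barbadense within 0.5 number 770 and 776.

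The levels of the shared rises ranged widely, and the highest single value was 5633 RPKM (15 DPA) against 1788 RPKM (10 DPA) for G. barbadense, with 1984 RPKM (15 DPA) against 941 RPKM (10 DPA) for G. hirsutum. Their median was 29.8 RPKM at 15 DPA against 6.28 RPKM at 10 DPA in G. barbadense, and 41.1 RPKM at 15 DPA against 10.5 RPKM at 10 DPA in G. hirsutum. The libraries of 20 and 5 DPA were not used to choose them. The median was 27.0 RPKM at 20 DPA against 1.86 RPKM at 5 DPA in G. barbadense, and 28.9 RPKM at 20 DPA against 1.78 RPKM at 5 DPA in G. hirsutum. Of the 71 genes, 59 (83.1%) were higher at 20 than at 5 DPA in both species, against 22.4% of the genes that reached 5 RPKM at 10 or 15 DPA. With equal sums the shares were 72.6% of 146 genes and 16.2%. By limma, 36 of the 71 rose from 5 to 20 DPA (3.38% of all tested genes did) and 0 fell (2.6% of all tested genes did). With equal sums 58 of the 146 rose (3.23% of all tested genes) and 1 fell (12.1% of all tested genes). The spread in that fit also rests on the 10 and 15 DPA libraries. These calls, and those for the other classes below, are thus not fully independent of how the genes were chosen. The 71 genes together held 5.13% of the summed RPKM at 20 DPA against 0.262% at 5 DPA in G. barbadense, and 3.52% at 20 DPA against 0.832% at 5 DPA in G. hirsutum.

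Leading genes of a class were taken from those in it under both scalings with 20 RPKM or more in a library, by the change of the moving species or, where both moved, by the smaller of the species differences. By this measure Gh_D07G1300 and Gh_D06G0677 led the shared rises. Gh_D07G1300 stood at 34.7 RPKM at 15 DPA against 4.86 RPKM at 10 DPA in G. barbadense, and at 42.5 RPKM at 15 DPA against 2.73 RPKM at 10 DPA in G. hirsutum. Gh_D06G0677 stood at 14.7 RPKM at 15 DPA against 1.23 RPKM at 10 DPA in G. barbadense, and at 272 RPKM at 15 DPA against 44.2 RPKM at 10 DPA in G. hirsutum. Both genes were higher at 15 DPA in both species, but Gh_D06G0677 was at a far higher level in G. hirsutum at both stages. The log2 differences were 3.08 (SE 0.71) and 2.70 (SE 0.80), short of the threshold (limma adjusted p = 0.598 and 0.61). At 20 DPA Gh_D07G1300 reached 147 RPKM (G. barbadense) and 38.8 RPKM (G. hirsutum), and Gh_D06G0677 reached 13.6 and 137 RPKM. From 5 to 20 DPA both rose (log2 changes 4.10, SE 0.71, and 4.90, SE 0.80; limma adjusted p = 0.00357 and 0.0025).

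The median level of the shared falls was 8.82 RPKM at 15 DPA against 33.8 RPKM at 10 DPA in G. barbadense, and 2.84 RPKM at 15 DPA against 13.8 RPKM at 10 DPA in G. hirsutum. At the stages not used to choose them, the median was 1.51 RPKM at 20 DPA against 14.9 RPKM at 5 DPA in G. barbadense, and 1.85 RPKM at 20 DPA against 4.50 RPKM at 5 DPA in G. hirsutum. Of the 995 genes, 659 (66.2%) were lower at 20 than at 5 DPA in both species, against 42.2% of the genes that reached 5 RPKM. With equal sums the shares were 82.9% of 434 genes and 55.5%. By limma, 184 of the 995 fell from 5 to 20 DPA (18.5%, against 2.6% of all tested genes) and 7 rose (0.704%, against 3.38%). With equal sums 233 of the 434 fell (53.7%, against 12.1% of all tested genes) and 2 rose (0.461%, against 3.23%).

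By the same measure, the smaller of the species differences, Gh_D04G1451 followed Gh_D07G2461 among the shared falls. It stood at 4.83 RPKM at 15 DPA against 65.0 RPKM at 10 DPA in G. barbadense, and at 0.67 RPKM at 15 DPA against 20.2 RPKM at 10 DPA in G. hirsutum. Over the species the log2 difference was -3.58 (SE 0.71), short of the threshold (limma adjusted p = 0.598). At 20 DPA it was listed at 0 in both species, and at 5 DPA its level was 6.78 RPKM (G. barbadense) and 6.03 RPKM (G. hirsutum). Its course was thus a peak at 10 DPA in both. A value of 0 in this table may be too few reads and need not mean that a transcript was absent. With that limit, 60 of the 11401 genes at 5 RPKM or more at 10 DPA in G. barbadense were listed at 0 at 15 DPA. In G. hirsutum 164 of 7201 such genes were, and 1 gene, Gh_Sca131037G01, was in both sets (named after its values were seen). Nothing is read from the size of this overlap, which was not tested. The reverse, 5 RPKM or more at 15 DPA after a 0 at 10 DPA, was seen for 25 of 7370 genes in G. barbadense and 32 of 5608 in G. hirsutum, with 0 in common. These counts are as deposited.

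**Figure D3:**
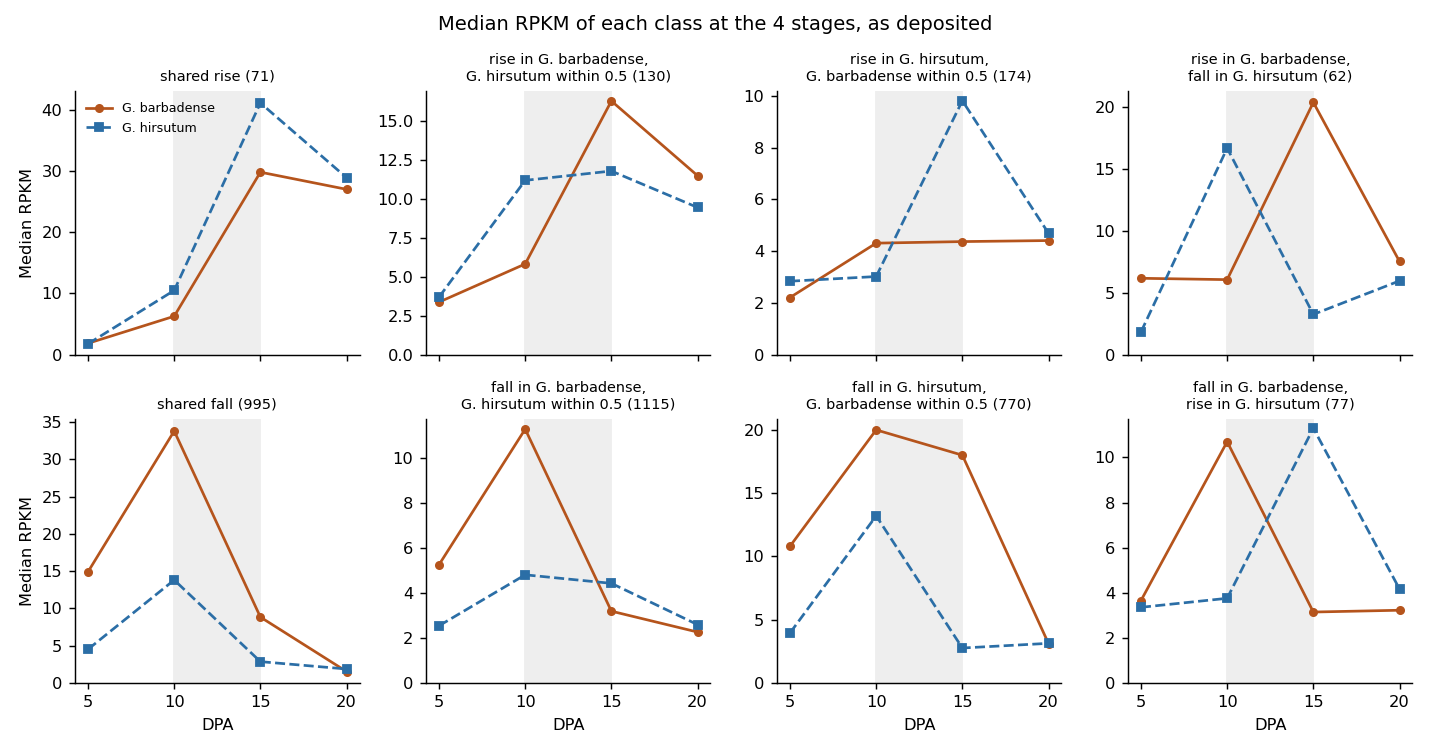
Median RPKM (y axis, as deposited) of each class at 5, 10, 15 and 20 DPA (x axis) in G. barbadense (circles, solid) and G. hirsutum (squares, dashed), with the number of genes in the title of each panel; the grey band marks the step that defined the classes. The falls of G. hirsutum that held in G. barbadense (770) had medians of 3.10 RPKM (G. barbadense) and 3.12 RPKM (G. hirsutum) at 20 DPA.

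The 770 falls of G. hirsutum that held in G. barbadense, that is, stayed within 0.5 there, were the largest one-species class with equal sums (776), median-of-ratios factors (799) and quantile normalization (705), but not as deposited. Their median in G. barbadense was 18.0 RPKM at 15 DPA against 20.0 RPKM at 10 DPA, and in G. hirsutum 2.75 RPKM at 15 DPA against 13.2 RPKM at 10 DPA. At 20 DPA, a stage not used to choose them, the medians were 3.10 RPKM (G. barbadense) and 3.12 RPKM (G. hirsutum). A like level in both species at 20 DPA was not particular to this class: over all tested genes the median difference, G. barbadense minus G. hirsutum on the log2(RPKM + 1) scale, ran 0.83, 0.70, 0.38 and 0.00 over the stages of 5, 10, 15 and 20 DPA. For the 770 genes it ran 1.12, 0.27, 1.90 and 0.02. Among the 640 of them that averaged 5 RPKM or more in G. barbadense over 10 and 15 DPA, 459 (71.7%) were at least 2-fold lower there at 20 DPA than at 10 and 15 DPA. The same held for 51.0% of all 2979 genes at that level that stayed within 0.5 in G. barbadense, whose median level was 13.5 RPKM against 23.7 RPKM in the 640. With equal sums the shares were 81.3% of 636 genes and 50.5% of 3042.

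Gh_A10G0871 and Gh_D07G2261 led this class. Gh_A10G0871 stood at 106 RPKM at 15 DPA against 146 RPKM at 10 DPA in G. barbadense, and at 1.31 RPKM at 15 DPA against 90.1 RPKM at 10 DPA in G. hirsutum. Gh_D07G2261 stood at 59.0 RPKM at 15 DPA against 81.3 RPKM at 10 DPA in G. barbadense, and at 0.75 RPKM at 15 DPA against 63.7 RPKM at 10 DPA in G. hirsutum. The library of G. hirsutum at 15 DPA thus stood apart from the other 3 for both genes. The step in G. barbadense minus that in G. hirsutum was 4.85 (SE 1.88) and 4.75 (SE 1.72) on the log2 scale, past the threshold for neither (limma adjusted p = 1). At 20 DPA the levels in G. barbadense were 1.57 and 2.68 RPKM, near those of G. hirsutum at 3.81 and 2.60 RPKM.

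The 1115 falls of G. barbadense that held in G. hirsutum had a median of 3.19 RPKM at 15 DPA against 11.3 RPKM at 10 DPA in G. barbadense, and 4.43 RPKM at 15 DPA against 4.81 RPKM at 10 DPA in G. hirsutum. At 20 DPA the medians were 2.26 and 2.59 RPKM. Among the 529 that averaged 5 RPKM or more in G. hirsutum, 190 (35.9%) were at least 2-fold lower there at 20 DPA, against 29.6% of all 2436 genes that held at that level (45.7% against 34.8% with equal sums). A lead of this class was Gh_Sca201838G01, listed at 0 at 15 DPA and at 43.2 RPKM at 10 DPA in G. barbadense, while G. hirsutum stood at 1.62 RPKM at 15 DPA against 1.63 RPKM at 10 DPA. The other, Gh_A09G1576, stood at 1.17 RPKM at 15 DPA against 28.1 RPKM at 10 DPA in G. barbadense, and at 6.83 RPKM at 15 DPA against 8.87 RPKM at 10 DPA in G. hirsutum. Both were low in G. barbadense at 20 DPA too, at 1.45 and 2.63 RPKM, and at 5 DPA they stood at 31.0 and 7.88 RPKM. The species difference in the step was -3.41 (SE 1.59) for Gh_A09G1576, short of the threshold (limma adjusted p = 1).

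As deposited, the one-species rises were smaller classes than the one-species falls, but in G. barbadense median-of-ratios factors gave 440 rises and 248 falls and quantile normalization 347 and 346. The 130 rises of G. barbadense that held in G. hirsutum had medians of 16.3 RPKM at 15 DPA against 5.83 RPKM at 10 DPA in G. barbadense, and 11.8 RPKM at 15 DPA against 11.2 RPKM at 10 DPA in G. hirsutum. The lower value was thus that of G. barbadense at 10 DPA. At 20 DPA the medians were 11.5 RPKM (G. barbadense) and 9.46 RPKM (G. hirsutum), and at 5 DPA 3.38 and 3.70 RPKM. By limma, 27 of the 130 (20.8%) rose from 5 to 20 DPA and 2 (1.54%) fell, against 3.38% and 2.6% of all tested genes. With equal sums 22 of the 187 (11.8%) rose and 5 (2.67%) fell, against 3.23% and 12.1% of all tested genes. The 174 rises of G. hirsutum that held in G. barbadense had medians of 4.37 RPKM at 15 DPA against 4.31 RPKM at 10 DPA in G. barbadense, and 9.81 RPKM at 15 DPA against 3.02 RPKM at 10 DPA in G. hirsutum. At 20 DPA these medians were 4.41 RPKM (G. barbadense) and 4.69 RPKM (G. hirsutum), so the higher level of G. hirsutum at 15 DPA was not seen there. By limma, 15 of the 174 (8.62%) rose from 5 to 20 DPA and 2 (1.15%) fell, against 3.38% and 2.6% of all tested genes. With equal sums 15 of the 361 (4.16%) rose and 23 (6.37%) fell, against 3.23% and 12.1% of all tested genes. More members thus fell than rose with equal sums, where falls were also more frequent over all tested genes. Under both scalings the class had a larger share of rises and a smaller share of falls than all tested genes.

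Gh_D05G0223 and Gh_A03G1167 led the rises of G. barbadense that held in G. hirsutum. Gh_D05G0223 stood at 7.07 RPKM at 15 DPA and was listed at 0 at 10 DPA in G. barbadense, while G. hirsutum stood at 16.4 RPKM at 15 DPA against 20.0 RPKM at 10 DPA. Gh_A03G1167 stood at 23.4 RPKM at 15 DPA against 2.70 RPKM at 10 DPA in G. barbadense, and at 8.75 RPKM at 15 DPA against 8.84 RPKM at 10 DPA in G. hirsutum. In G. barbadense at 5 DPA they stood at 4.34 and 37.1 RPKM, so the 10 DPA library was the low one in the course of both. The species difference in the step was 2.73 (SE 1.67) for Gh_A03G1167, short of the threshold (limma adjusted p = 1).

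Among the rises of G. hirsutum that held in G. barbadense, Gh_A13G2069 stood at 2.08 RPKM at both stages in G. barbadense. In G. hirsutum it stood at 58.8 RPKM at 15 DPA against 4.78 RPKM at 10 DPA. Its levels in G. hirsutum were 22.35 RPKM at 5 DPA and 17.65 RPKM at 20 DPA, so the 10 DPA library was the low one. Gh_D04G1612 stood at 30.4 RPKM at 15 DPA against 31.9 RPKM at 10 DPA in G. barbadense, and at 18.7 RPKM at 15 DPA against 1.82 RPKM at 10 DPA in G. hirsutum. At 20 DPA Gh_D04G1612 was listed at 0 in G. barbadense and stood at 8.16 RPKM in G. hirsutum, and at 5 DPA it stood at 7.27 RPKM in G. barbadense and was listed at 0 in G. hirsutum. The species difference in the step was -3.37 (SE 1.69) and -2.88 (SE 2.21), past the threshold for neither (limma adjusted p = 1). Each left its class under another scaling, Gh_D04G1612 with median-of-ratios factors and both with quantile normalization.

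Genes with opposite ways were higher at 15 DPA in one species and lower in the other. Gh_Sca027989G01 stood at 53.3 RPKM at 15 DPA against 1.46 RPKM at 10 DPA in G. barbadense, and was listed at 0 at 15 DPA and at 7.19 RPKM at 10 DPA in G. hirsutum. Gh_D04G2021 stood at 18.1 RPKM at 15 DPA against 2.59 RPKM at 10 DPA in G. barbadense, and at 1.68 RPKM at 15 DPA against 36.5 RPKM at 10 DPA in G. hirsutum. In the reverse class, Gh_A03G0803 stood at 23.5 RPKM at 15 DPA against 72.5 RPKM at 10 DPA in G. barbadense, and at 50.1 RPKM at 15 DPA against 11.8 RPKM at 10 DPA in G. hirsutum. All of these genes crossed over between the species within the step, as did Gh_D08G0989, at 2.61 RPKM at 15 DPA against 9.74 RPKM at 10 DPA in G. barbadense, and at 20.6 RPKM at 15 DPA against 5.63 RPKM at 10 DPA in G. hirsutum. The 5 and 20 DPA libraries gave mixed courses. Gh_Sca027989G01 was higher in G. barbadense at 20 DPA (21.7 RPKM against 1.24 RPKM in G. hirsutum) and at 5 DPA (88.3 RPKM, listed at 0 in G. hirsutum), so its low value in G. barbadense was that of 10 DPA. At 20 DPA Gh_A03G0803 was at 9.46 RPKM (G. barbadense) and 10.5 RPKM (G. hirsutum), and both genes of the reverse class left it with median-of-ratios factors and quantile normalization.

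**Figure D4:**
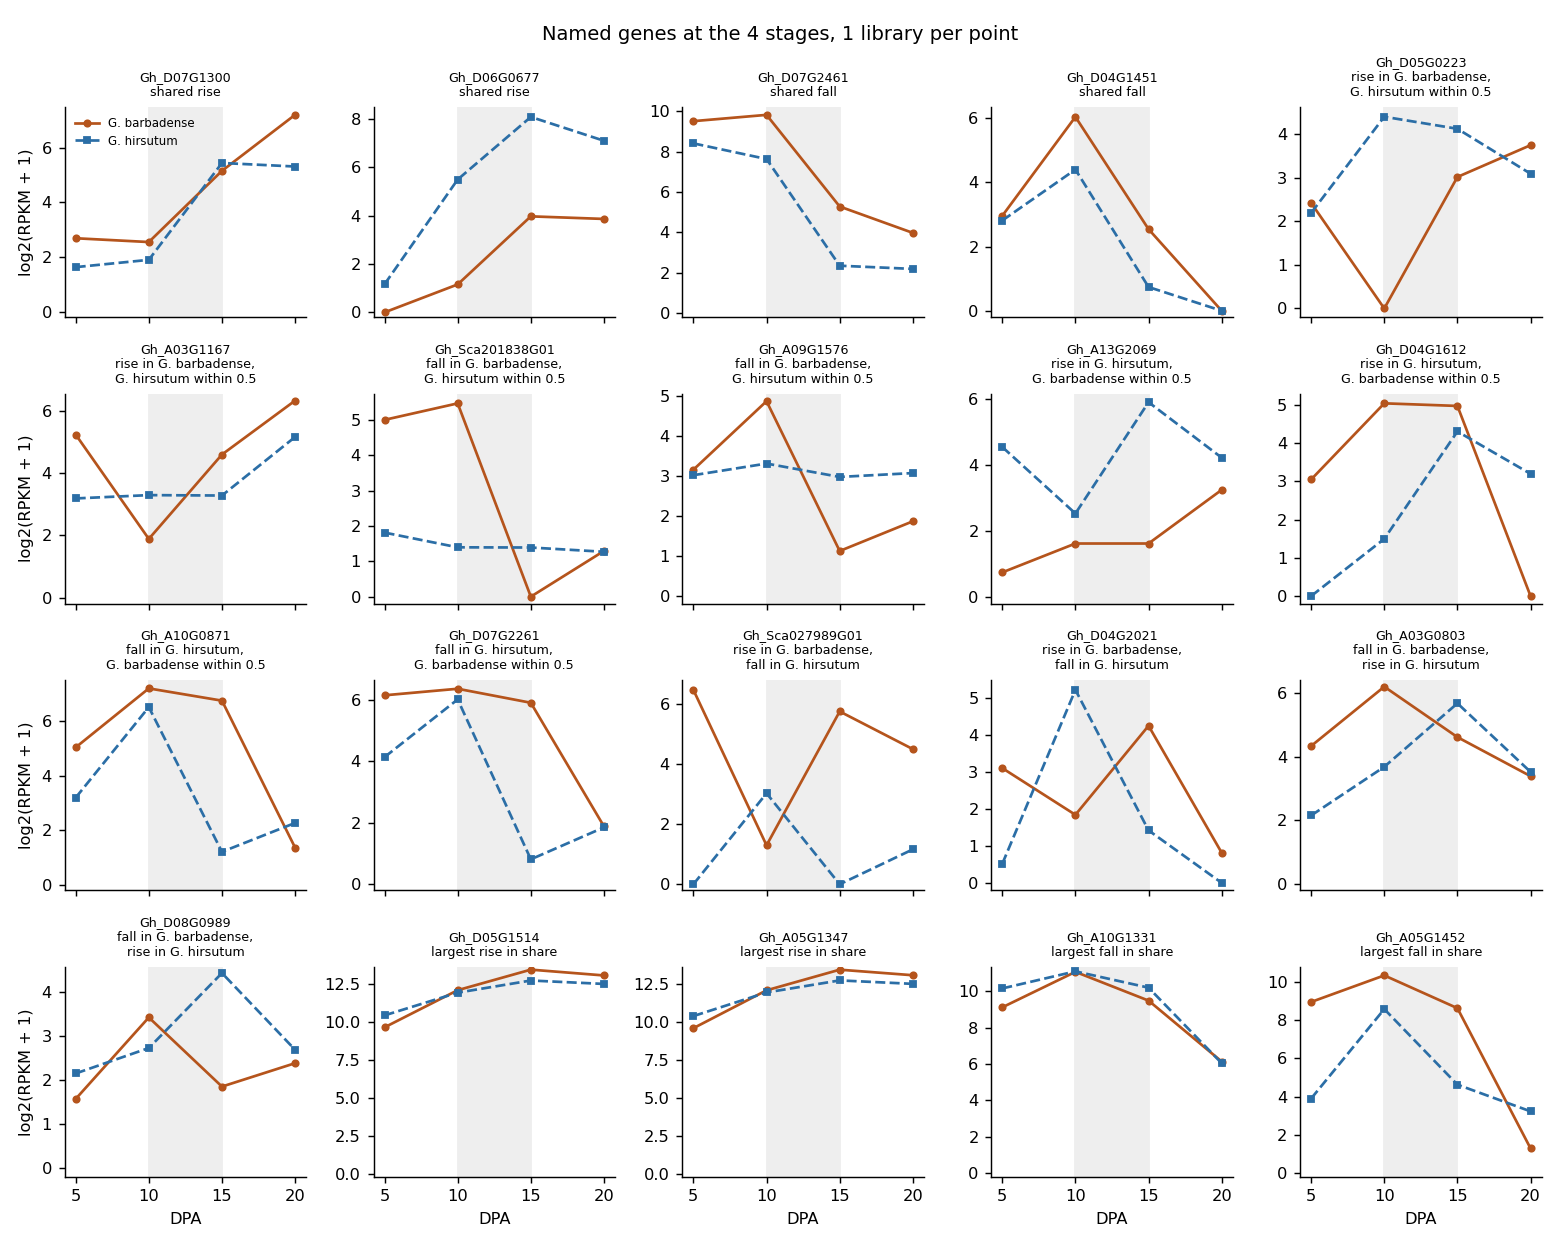
Level of the 20 genes named by the rule, log2(RPKM + 1) on the y axis, at 5, 10, 15 and 20 DPA (x axis) in G. barbadense (circles, solid) and G. hirsutum (squares, dashed); each point is 1 library and the grey band marks the step. Gh_D07G2461 is far lower at 15 DPA in both species (37.9 RPKM against 905 RPKM at 10 DPA in G. barbadense), and Gh_A10G0871 stays high in G. barbadense until 15 DPA.

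The classes lay on both subgenomes. Of all tested genes, A chromosomes held 47.0%, D chromosomes 48.9% and scaffolds 4.1%. Shared falls were 46.5% A, 47.7% D and 5.73% scaffold. Shared rises were 38.0% A, 53.5% D and 8.45% scaffold, from 27, 38 and 6 genes. Scaffold identifiers made up 8 of the 62 genes (12.9%) with a rise in G. barbadense and a fall in G. hirsutum, and 10 of 84 (11.9%) with equal sums. No test was made of these shares.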

How the data were processed

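The authors deposited one table of RPKM with 2 decimals for 59006 genes and 8 libraries, matched here by sample title; per the submitters' processing notes, the tools were Bowtie2, cutadapt and edgeR. Their versions and settings, the genome build, the annotation and the counting of multi-mapping reads are not stated in those sources. The last stage is labelled 20 DPA, although its titles carry the number 25.

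log2(RPKM + 1) was fitted with limma 3.58.1 in R 4.3.3 (lmFit, eBayes with a trend; two-sided, Benjamini-Hochberg) for the 20356 genes averaging at least 1 RPKM, with stage and species in the model (3 residual degrees of freedom). The species difference in the step was a further term (2 residual degrees of freedom). The species term pairs the libraries by design. A log2(RPKM + 1) difference understates that of low genes. Both tests were tried on simulated data with 200 changed genes of 20356. The test of the step found 0% of 4-fold and 37% of 16-fold changes. The test of the species difference found 0% of the changes of either size. Classes were set from single libraries with Python 3.11.15, pandas 2.3.3 and numpy 2.4.6.

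Named genes are the 2 largest of each class in both scalings with 20 RPKM or more in a library, the genes past the threshold, and the 2 with the largest change in share each way. The classes, lists and tests were chosen with earlier results of these data known. Alternatives were scaling, pseudocount, filters, thresholds, libraries left out and the species term.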

Additional observations from a re-analysis of the deposited data

Results flagged for a closer look

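The named genes that moved in opposite ways in the species are listed here because the step was a rise in 1 species and a fall in the other. With 1 library per species and stage, no agreement of replicates lies behind either direction. The step in G. barbadense minus that in G. hirsutum was 7.50 for Gh_Sca027989G01 and 6.22 for Gh_D04G2021 on the log2(RPKM + 1) scale; the first rests on a library listed at 0 and depends on the pseudocount of 1. It was -3.58 for Gh_A03G0803 and -3.28 for Gh_D08G0989. The standard errors were 1.94, 1.68, 1.65 and 1.55, and the test of the difference passed for none of the 4 genes (limma adjusted p = 1). The genes were picked for this pattern, so the size of these differences is a description.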

How the results depend on the processing

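The single call of the step rests on the settings used. It was 0 with equal sums, median-of-ratios factors, quantile normalization, a pseudocount of 0.1, no filter or a mean of at least 5 RPKM. It was also 0 without the replicate block (the species term), and 0 in the paired fit of the 4 libraries alone, as deposited or, added after the data were seen, with equal sums. Leaving out 1 library gave 0 to 20 genes: 20 without G. barbadense 15 DPA (19 lower, 1 higher), 0 without any other. The cause was not tested. Gh_D07G2461 kept its direction in all 17 settings, with adjusted p from 0.0128 to 1. The test of the species difference called 0 genes in the settings that could be fitted, which says nothing about stability, since a test with so few residual degrees of freedom had little power; without a 10 or 15 DPA library it could not be fitted. None of the 20 named genes changed direction, which says little about stability. The filters and leaving out a library of 5 or 20 DPA left the estimates themselves unchanged, and most named genes were chosen under both scalings. The same limit holds for the direction of Gh_D07G2461.

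Shared rises numbered 146 with equal sums, 207 with median-of-ratios factors, 253 with quantile normalization, 14 at a 4-fold limit and 36 at a minimum of 20 RPKM. Shared falls numbered 434, 235, 261, 137 and 321 in that order, so the excess of shared falls was small with median-of-ratios factors and quantile normalization. Genes moving in G. barbadense with G. hirsutum level numbered 702, 688, 693, 205 and 363, with 672 at a mean of at least 5 RPKM and 622 where level meant under 0.25. Genes moving in G. hirsutum with G. barbadense level numbered 327 at 4-fold, 336 at 20 RPKM and 465 under 0.25. Opposite ways numbered 9 at 4-fold and 37 at 20 RPKM. Shared rises higher at 20 than at 5 DPA in both species made up 72.6% with equal sums, 100% at 4-fold and 94.4% at 20 RPKM. Shared falls lower at 20 DPA made up 82.9% with equal sums, 78.3% with median-of-ratios factors, 80.1% with quantile normalization and 73.7% at 4-fold. The share gained by the most abundant genes was 9.95 points in G. barbadense and 10.5 points in G. hirsutum for 20 genes, against 12.3 and 9.44 points for 100 genes and 11.8 and 7.02 points for 500 genes.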
